A study of Rattus norvegicus with 6 samples.

Results

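The miR-23a and miR-23b clusters are a pair of related miRNA genes, each of which carries a miR-23, a miR-27 and a miR-24 hairpin on a single primary transcript. The 10 rows described here are arms of these hairpins, chosen by their names in the deposited table (rno-miR-23a-3p, rno-miR-23a-5p, rno-miR-27a-3p, rno-miR-27a-5p, rno-miR-24-3p, rno-miR-24-2-5p, rno-miR-23b-3p, rno-miR-23b-5p, rno-miR-27b-3p and rno-miR-27b-5p, written below without the prefix for rat), out of 764 rat miRNA rows of which 570 were above 0 in some library. All 10 were above 0 in some library and were tested. Small RNA had been sequenced from rat tissue labelled testicle, from male Sprague Dawley animals whose left testis was twisted by 720° for 2 h and then left in its natural position for 3 days. The 3 HO-1 knockout libraries came from animals lacking heme oxygenase 1, the enzyme that degrades heme, and the 3 wild type libraries from animals that keep it. Both genotypes had the same torsion and return of blood flow, and no sham-operated library was analysed here. The labels give no age and no allele, and leave unsaid how many animals the libraries stand for; p-values therefore cover the spread among these 6 libraries only, part of which may be technical. Small RNA libraries hold no HO-1 transcript to check the knockout labels with.

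A miRNA hairpin is cut into a 5p and a 3p arm, and usually 1 of these, the guide, is loaded into an Argonaute protein and represses messenger RNAs that pair with its seed, bases 2 to 8, while the other, the passenger, is mostly degraded. In both clusters the 3p arms are the guides. miR-27 is known for repressing PPARγ and the formation of fat cells and for effects on lipid metabolism in liver, miR-23 and miR-27 for roles in endothelial cells and the growth of vessels, and miR-23a for repressing glutaminase. The miR-23b cluster is shared by many tissues, vascular smooth muscle and endothelium among them.

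In RefSeq's rat assembly GRCr8 the hairpins of miR-23a, miR-27a and miR-24-2 lie on the minus strand within 389 bases, at chr19:40859455-40859843. Those of miR-23b, miR-27b and miR-24-1 lie on the minus strand within 814 bases, at chr17:1818669-1819482, inside the span of the protein-coding gene Aopep, which is on the same strand. Mature sequences were found for 9 of the 10 arms, and miR-23a-5p is named only. They are shown because the a and b guides are so alike that a single base assigns a read to 1 cluster or the other. The seed is in capitals, and each is written from its 5′ end, as in RefSeq on GRCr8.
miR-23a-3p: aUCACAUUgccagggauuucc
miR-23b-3p: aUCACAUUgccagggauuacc
miR-27a-3p: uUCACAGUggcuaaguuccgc
miR-27b-3p: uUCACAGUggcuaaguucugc
miR-24-3p: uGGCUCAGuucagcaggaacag
miR-24-2-5p: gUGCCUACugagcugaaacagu
miR-24-1-5p: gUGCCUACugagcugauaucag
miR-27a-5p: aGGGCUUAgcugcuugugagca
miR-27b-5p: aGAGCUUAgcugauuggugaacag
miR-23b-5p: gGGUUCCUggcaugcugauuu

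The 3p arms of miR-23a and miR-23b differ by 1 substitution, U19A, and those of miR-27a and miR-27b by 1, C19U, with positions counted from the 5′ end and the a arm's base first. Their first 18 bases and their seeds are therefore the same, so a read that ends before base 19 could come from either cluster. The sources used here do not say how such reads were assigned. miR-24-3p has an identical sequence in both clusters and is a single row, whose reads cannot be divided between chromosomes 17 and 19. The passenger arms of the miR-24 hairpins differ at 5 positions after 16 identical bases and are separate rows, of which miR-24-2-5p is among the 10. Among the 693 rat mature names with a sequence, no other shared the seed of miR-23-3p, miR-27-3p or miR-24-3p.

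The most abundant miRNA was the hepatocyte miR-122-5p, whose hairpin held 403907 to 464870 RPM (reads per 1000000 assigned reads) in the knockout and 328377 to 366899 RPM in the wild type, although neither of its arms passed the test used below. Markers of the labelled tissue were low. All 5 germ cell arms (miR-34b, miR-34c and miR-449a) were detected, but summed to only 26.8 to 31.9 RPM in the knockout and 34.95 to 52.6 RPM in the wild type, and of the gonadal miR-202, miR-202-3p was at 0 in every library and miR-202-5p stood at 0.71 to 2.22 RPM in the knockout and 0.90 to 1.58 RPM in the wild type. Library totals recovered from the RPM steps were 8300536 to 9809055 reads in the knockout and 9128924 to 10042673 reads in the wild type, so that a value of 0 allows up to 3 reads, or 0.299 to 0.361 RPM. That limit covers counting error only. In bulk tissue, fewer cells of a type and less RNA per cell cannot be told apart.

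Together the 10 arms held 1.03% ± 0.12 of the reads in the knockout and 1.42% ± 0.23 in the wild type (SD, n = 3). By library this was 0.949%, 1.17% and 0.981% in knockout libraries 1 to 3, and 1.66%, 1.41% and 1.20% in wild type libraries 1 to 3. The groups did not overlap, with knockout library 2 close below wild type library 3 (exact permutation p = 0.1, two-sided, which is the lowest value that 3 against 3 libraries can reach). The difference of -0.39 percentage points was -0.193 with TMM scaling, which sets libraries by the bulk of miRNAs rather than by the total (exact permutation p = 0.1), and as a share of the reads outside the 10 most abundant miRNAs it did not reach that lowest value (exact permutation p = 0.2). Nearly all of these reads were guides: the 5 guide arms held 10196 ± 1191 RPM of 10336 ± 1193 RPM in the knockout and 14081 ± 2296 RPM of 14240 ± 2326 RPM in the wild type.

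The order of the 10 arms was the same in all 6 libraries. From high to low it was miR-27b-3p, miR-24-3p, miR-23b-3p, miR-27a-3p, miR-23a-3p, miR-24-2-5p, miR-27a-5p, miR-27b-5p, miR-23b-5p and miR-23a-5p, and within each genotype no arm's range overlapped that of its neighbour in this order. The mature sequences are 21 to 24 bases long, so read counts of different arms are comparable as regards length, but ligation and amplification differ between sequences and were not measured. By mean RPM miR-27b-3p ranked 22nd of the 570 miRNAs, miR-24-3p 29th and miR-23a-5p 393rd.

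**Figure D1:**
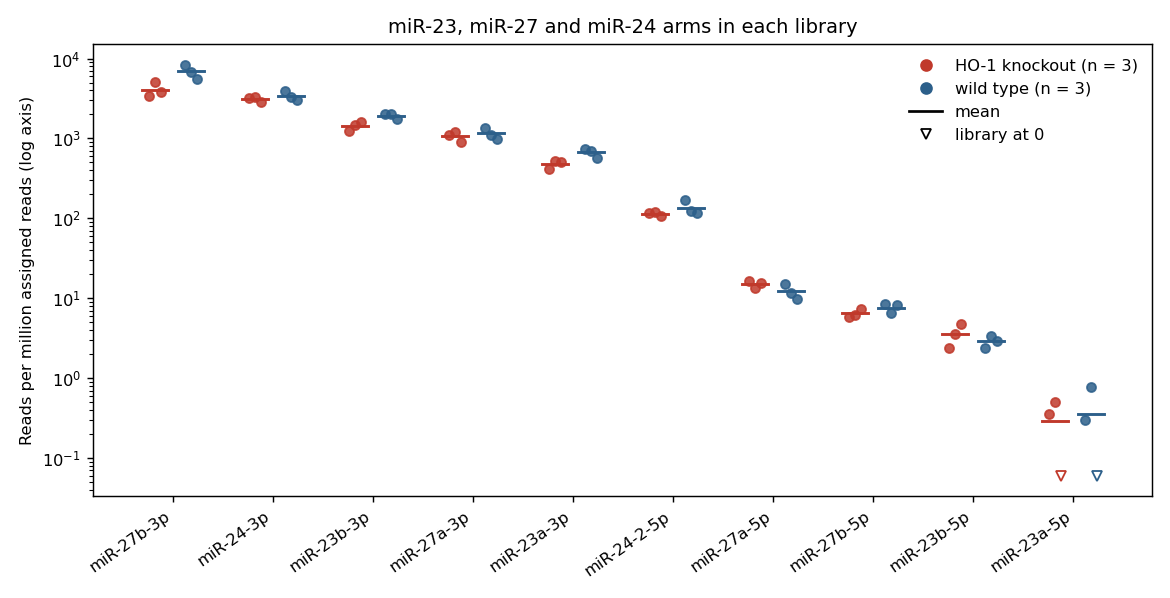
RPM of each arm in every library on a log axis, with HO-1 knockout libraries 1 to 3 to the left of wild type libraries 1 to 3, the mean of each group as a line, and libraries at 0 as open triangles. The 5 guide arms stand between 419 and 8402 RPM, and the clearest gap between genotypes is that of miR-27b-3p.

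None of the 10 arms passed the test between genotypes (limma on log2(RPM + 1), Benjamini-Hochberg adjusted p below 0.05), where 6.32% of the 570 tested miRNAs did. At an unadjusted p below 0.05 there were 3 of 10 arms, miR-27b-3p, miR-23b-3p and miR-23a-3p, beside 19.3% of all tested miRNAs. These 3 were also the arms whose libraries did not overlap between genotypes, each lower in the knockout, as were 21.6% of all tested miRNAs and 41.7% of the 218 with a mean of at least 10 RPM. Of the 7 arms of at least 10 RPM, 6 had a log2 change below 0, where 75.2% of the 218 did. Over all 10 arms the median log2 change was -0.16, beside -0.12 over the 570 miRNAs and -0.29 over the 218.

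miR-27b-3p, the guide of the b cluster that represses PPARγ in other settings, had 3408, 5068 and 3768 RPM in knockout libraries 1 to 3, against 8402, 6783 and 5581 RPM in wild type libraries 1 to 3. Every knockout library was below every wild type library, and the nearest pair was knockout library 2 and wild type library 3. The means were 4081 ± 874 RPM in the knockout and 6922 ± 1416 RPM in the wild type (SD, n = 3), 0.590 of the wild type level, and the log2 change, -0.76 with an SE of 0.19, did not pass (limma adjusted p = 0.056). The authors' deposited table gives it a log2 fold change of -0.76 and a p-value of 0.00080, with no statement of its test or adjustment.

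That call turned on the scaling and the test. With TMM scaling the log2 change of miR-27b-3p was -0.54 (SE 0.13) and passed (limma adjusted p = 0.039), and it was the only one of the 10 arms to pass, beside 5.09% of tested miRNAs called lower. edgeR's quasi-likelihood test on recovered reads gave -0.54 (adjusted p = 0.018), and DESeq2 gave -0.52 (adjusted p = 0.0037), beside 6.14% and 6.49% called lower. It was again the only arm called with RLE scaling (4.74% of tested miRNAs called lower), upper-quartile scaling (4.39%), totals without the 10 most abundant miRNAs (5.09%), a pseudocount of 0.1 (6.84%) and testing only the miRNAs of at least 10 RPM (18.8%). With single libraries left out it passed only without knockout library 2 (limma adjusted p = 0.047; 3.36% called lower) and missed in the other 5 fits (limma adjusted p between 0.053 and 0.19).

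miR-23b-3p, from the same primary transcript, had 1233, 1472 and 1626 RPM in knockout libraries 1 to 3, against 2020, 2034 and 1730 RPM in wild type libraries 1 to 3. The groups did not overlap, and its log2 change was -0.42 (SE 0.13, limma adjusted p = 0.11), or -0.20 with TMM scaling (limma adjusted p = 0.37). Its near-identical partner miR-23a-3p had 419, 522 and 510 RPM in the knockout libraries, against 741, 705 and 564 RPM in the wild type libraries. These ranges were also apart, and the log2 change was -0.47 (limma SE 0.14 and adjusted p = 0.11), or -0.24 with TMM scaling (limma adjusted p = 0.18). The 3p arms of miR-23 together stood at 1927 ± 249 RPM in the knockout and 2598 ± 263 RPM in the wild type (SD, n = 3; exact permutation p = 0.1, two-sided).

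miR-27a-3p, which shares its seed with miR-27b-3p, had 1102, 1213 and 894 RPM in knockout libraries 1 to 3, against 1362, 1109 and 992 RPM in wild type libraries 1 to 3. The ranges overlapped, and the log2 change was -0.11 (SE 0.16, limma adjusted p = 0.71), but 0.12 after TMM scaling (limma adjusted p = 0.68). As miR-27b-3p was the larger, the summed level of this seed was 5151 ± 982 RPM in the knockout and 8077 ± 1603 RPM in the wild type (SD, n = 3; exact permutation p = 0.1, two-sided).

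miR-24-3p, made by both clusters, had 3189, 3281 and 2882 RPM in knockout libraries 1 to 3, against 3921, 3306 and 2992 RPM in wild type libraries 1 to 3. The ranges overlapped, and the log2 change was -0.12 (SE 0.12, limma adjusted p = 0.60), or 0.10 with TMM scaling (limma adjusted p = 0.66). Its share of the reads of the 10 arms was 30.3% ± 2.9 in the knockout and 23.99% ± 0.82 in the wild type, while that of miR-27b-3p was 39.2% ± 3.8 in the knockout and 48.4% ± 2.0 in the wild type (SD, n = 3). Since such shares sum to a whole, a lower one raises the others.

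**Figure D2:**
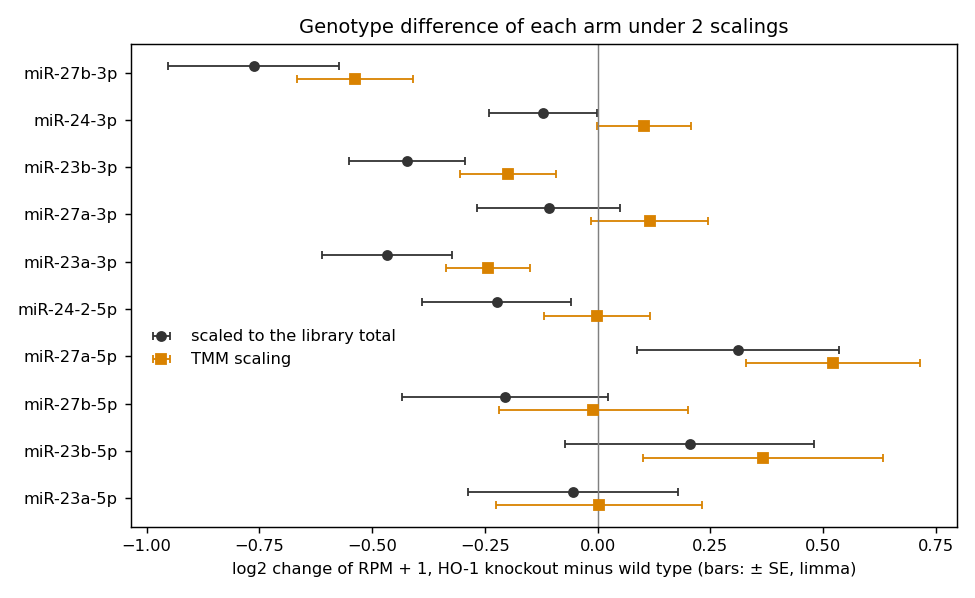
log2 change of RPM + 1 in HO-1 knockout against wild type for each arm, with its standard error from limma, for values scaled to the library total (circles) and by TMM (squares). Every arm lies further right with TMM (miR-27b-3p at -0.54 in place of -0.76), and miR-27a-3p and miR-24-3p lie on the other side of 0; no direction is read for miR-23a-5p, with 8 reads in the knockout and 10 in the wild type.

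The passenger arms of the clusters did not pass either. miR-24-2-5p had 116, 119 and 108 RPM in knockout libraries 1 to 3, against 168, 123 and 115 RPM in wild type libraries 1 to 3, with wild type library 1 standing above the rest (log2 change -0.22, SE 0.17, limma adjusted p = 0.48). miR-27a-5p had 16.6, 13.3 and 15.7 RPM in the knockout libraries, against 14.9, 11.7 and 9.81 RPM in the wild type libraries. It was the arm with the most positive log2 change, 0.31 (SE 0.22, limma adjusted p = 0.47), and its ranges overlapped. The authors' deposited table gives miR-27a-5p a log2 fold change of 0.32 and a p-value of 0.028.

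miR-27b-5p averaged 6.49 ± 0.76 RPM in the knockout and 7.65 ± 1.03 RPM in the wild type, and miR-23b-5p 3.59 ± 1.19 RPM in the knockout and 2.91 ± 0.51 RPM in the wild type (SD, n = 3). Neither passed, with limma adjusted p of 0.63 and 0.71. miR-23a-5p was at the limit of detection, with 8 reads over the 3 knockout libraries and 10 over the 3 wild type libraries, and library 3 of each genotype had none. No fold of its means is therefore given, and no direction is read from its fitted log2 changes, here or below.

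Levels of the clusters were compared within libraries, since such ratios do not depend on how a library is scaled. The b guides were above the a guides in all 6 libraries. miR-23a-3p stood at 0.340, 0.355 and 0.314 of miR-23b-3p in knockout libraries 1 to 3, against 0.367, 0.347 and 0.326 in wild type libraries 1 to 3. This ratio overlapped between genotypes, and its mean log2 value differed by only -0.04 (exact two-sided permutation p = 0.6). miR-27a-3p stood at 0.323, 0.239 and 0.237 of miR-27b-3p in the knockout, against 0.162, 0.163 and 0.178 in the wild type. The knockout libraries all stood above the wild type ones, on average by 0.65 on the log2 scale of RPM + 1 (exact permutation p = 0.1, two-sided).

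The same direction was seen in the passengers of miR-27, where miR-27a-5p over miR-27b-5p was 2.82, 2.13 and 2.14 in knockout libraries 1 to 3, against 1.79, 1.81 and 1.21 in wild type libraries 1 to 3 (exact permutation p = 0.1, two-sided). In the same order of libraries, these ratios rest on 138, 130, 141, 150, 107 and 93 reads of miR-27a-5p. For miR-27b-5p the reads were 49, 61, 66, 84, 59 and 77. Here the a arm was the higher of the pair in every library, the reverse of the guides. The 5p arms of miR-27a and miR-27b differ at 8 positions, from base 3 on. The part of read assignment in the ratio of the guides was not tested. Levels of passengers also depend on their decay, which was not measured. The 4 arms of miR-23a and miR-27a together were 0.287 ± 0.038 of the 4 arms of miR-23b and miR-27b in the knockout and 0.208 ± 0.006 in the wild type (SD, n = 3). Most of that b sum was miR-27b-3p, with 4081 of 5535 RPM in the knockout and 6922 of 8861 RPM in the wild type. This ratio is therefore not independent of that of the miR-27 guides, and both are counted among the non-overlapping ratios below.

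In all, 16 ratios were compared between genotypes, and the libraries of 5 did not overlap. Among all 23653 pairs of miRNAs of at least 10 RPM, 46.5% had ratios that did not overlap between genotypes. That background leaves out miRNAs below 10 RPM, while several of the 16 ratios include miR-23a-5p, miR-23b-5p or miR-27b-5p, which lie below it and whose log2 ratios are damped by the added 1 RPM, so the shares are not alike. The smallest Benjamini-Hochberg adjusted p over the 16 was 0.32. Ratios that set miR-27 against miR-23 on the same transcript overlapped in each arm and cluster: miR-27b-3p was 2.76, 3.44 and 2.32 times miR-23b-3p in knockout libraries 1 to 3, against 4.16, 3.34 and 3.23 times in wild type libraries 1 to 3 (exact two-sided permutation p = 0.3).

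**Figure D3:**
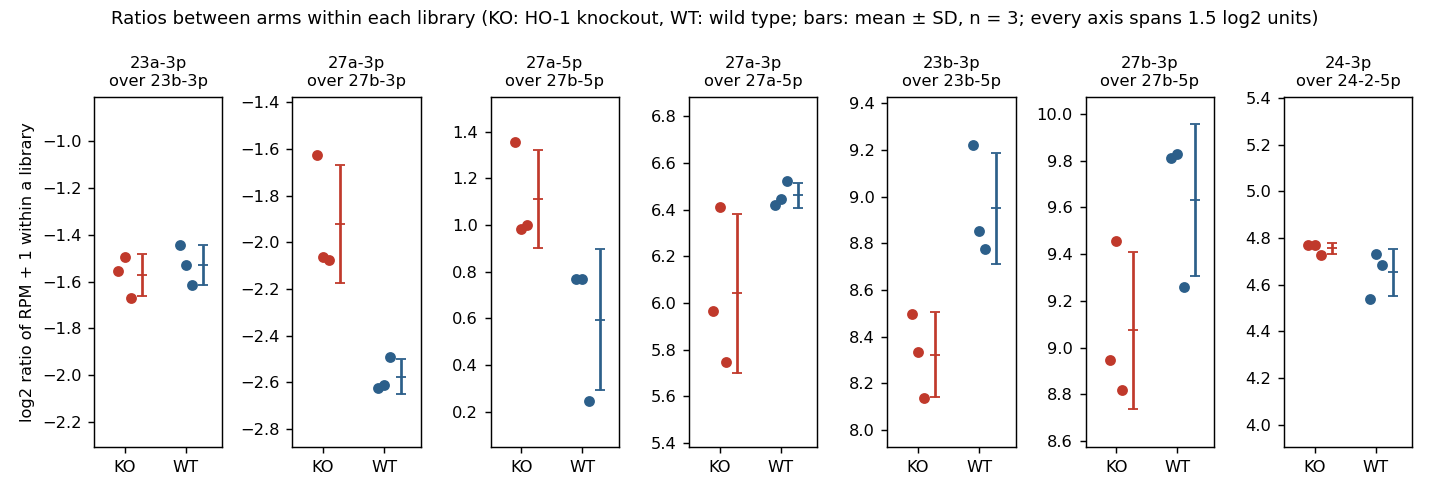
log2 ratio of RPM + 1 between arms within each library for 7 of the 16 ratios, HO-1 knockout (KO) left of wild type (WT), with the mean and SD beside the 3 libraries and an axis span of 1.5 log2 units in each panel. 23a-3p over 23b-3p overlaps between genotypes, while 27a-3p over 27b-3p is between -2.07 and -1.63 in the knockout and between -2.62 and -2.49 in the wild type.

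The 5p share of a hairpin's reads measures how far the guide outweighs its passenger. Among the miR-23 and miR-27 hairpins it was highest for miR-27a, at 1.43% ± 0.33 in the knockout and 1.04% ± 0.05 in the wild type, and lower for miR-27b, at 0.163% ± 0.037 in the knockout and 0.113% ± 0.028 in the wild type (SD, n = 3). For miR-23b it was 0.195%, 0.242% and 0.293% in knockout libraries 1 to 3, against 0.118%, 0.167% and 0.170% in wild type libraries 1 to 3, with no overlap. These shares rest on 20, 35 and 43 reads of miR-23b-5p in the knockout libraries and 24, 31 and 28 in the wild type libraries. The RPM of miR-23b-5p itself overlapped between genotypes, while that of miR-23b-3p was lower in the knockout without overlap. miR-23a-5p never exceeded 0.109% of its hairpin.

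The log2 ratio of 3p over 5p for miR-23b was accordingly 8.32 ± 0.18 in the knockout and 8.95 ± 0.24 in the wild type (SD, n = 3; exact permutation p = 0.1, two-sided). That of miR-27a was 6.04 ± 0.34 in the knockout and 6.46 ± 0.05 in the wild type, with knockout library 2 at 6.41 just below wild type library 1 at 6.42. Without the added 1 RPM, that pair was 91.5 in knockout library 2 and 91.1 in wild type library 1, so the groups overlapped. Of the 94 hairpins with both arms at a mean of at least 1 RPM, 21.3% had a ratio of major to minor arm that was lower in every knockout library, and 16% one that was higher. miR-24-3p over miR-24-2-5p was 27.5, 27.5 and 26.7 in knockout libraries 1 to 3, against 23.4, 26.8 and 25.9 in wild type libraries 1 to 3. This ratio overlapped between genotypes, with means of 27.2 ± 0.4 in the knockout and 25.4 ± 1.8 in the wild type (SD, n = 3; exact permutation p = 0.2, two-sided). It is not the arm ratio of a single hairpin, since miR-24-3p reads come from both clusters and miR-24-2-5p reads from the a cluster.

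The passengers of miR-24 gave the opposite order of clusters from the guides of miR-23 and miR-27. miR-24-2-5p, from the a cluster, was 7.83, 9.83 and 13.1 times miR-24-1-5p, from the b cluster, in knockout libraries 1 to 3, against 13.2, 10.6 and 12.9 times in wild type libraries 1 to 3. miR-24-1-5p, which is not among the 10, averaged 11.7 ± 3.3 RPM in the knockout and 11.1 ± 1.9 RPM in the wild type (SD, n = 3), and its log2 change was 0.05 (limma SE 0.27 and adjusted p = 0.91). The ratio of these passengers was chosen after its values were seen and is given without a test. A passenger's level depends on its decay as well as on its transcript, and decay was not measured. miR-3074, read from the other strand of the miR-24-1 locus, had 4 reads over the 3 knockout libraries and 1 over the 3 wild type libraries.

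The spread between libraries of a genotype differed from arm to arm. Wild type library 1 had the highest value of its genotype for 7 of the 10 arms, and wild type library 3 the lowest for 8. In the knockout, library 2 was highest for 6. These counts were not made over all miRNAs. The TMM factors, which follow the bulk of miRNAs, ran the same way, at 1.23, 1.06 and 0.97 in wild type libraries 1 to 3. Within the knockout the TMM factor was also highest in library 2, at 0.99. The coefficient of variation of miR-27b-3p was 21.4% in the knockout and 20.5% in the wild type, and that of miR-24-3p 6.72% in the knockout and 13.9% in the wild type.

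The likeness of profiles was measured as the root mean square difference of log2(RPM + 1), each centred on its own mean, over the 6 libraries, and compared with 211 other miRNAs of at least 10 RPM. miR-27b-3p was nearest to miR-203a-3p (0.12), miR-99b-3p (0.14) and the smooth muscle miRNA miR-143-3p (0.14), where the median miRNA was at 0.36. Its nearest arm among the 10 was miR-23a-3p, at 0.20. The miR-23 guides were closest to each other among the 10, at 0.075. Outside the clusters miR-23a-3p was nearest to the leukocyte miRNA miR-223-3p (0.057), miR-7a-1-3p (0.058) and miR-30a-3p (0.071), and miR-23b-3p to miR-193a-5p (0.076), miR-194-3p (0.080) and miR-7a-1-3p (0.089). Cell types are named here only for miRNAs on the marker lists below, and a shared cell type was not tested. miR-27a-3p and miR-24-3p were also closest to each other among the 10, at 0.076. Outside the clusters miR-27a-3p was nearest to the leukocyte miRNA miR-142-5p (0.075), miR-598-3p (0.082) and miR-872-5p (0.10), and miR-24-3p to miR-872-5p (0.074), miR-450b-5p (0.077) and miR-598-3p (0.088).

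Several marker lists had lower summed RPM in the knockout, as miR-27b-3p did, but not every arm of a list was lower. The smooth muscle and fibroblast list summed to 6895 to 9094 RPM in the knockout and 12086 to 19225 RPM in the wild type. All 8 of its arms were detected in some library. However, miR-214-5p was at 0 in the knockout and averaged 0.14 RPM in the wild type, below the 3-read limit. Of these 8, 4 fell, 0 rose and 4 did not pass, with a median log2 change of -0.998. Among the fallen, miR-143-3p stood at 5914 ± 1034 RPM in the knockout and 11348 ± 2414 RPM in the wild type (SD, n = 3; limma adjusted p = 0.025). In contrast, miR-145-3p had a log2 change of 0.08. Of all 570 tested miRNAs, 32 fell. Among the 218 of at least 10 RPM, 41.7% were lower without overlap, and the median log2 change of the 218 was -0.29. All marker values are scaled to the library total. The 3 endothelial arms summed to 19147 to 21287 RPM in the knockout and 25222 to 26982 RPM in the wild type, with a median log2 change of -0.39. Here miR-126a-3p and miR-126a-5p fell. miR-126b did not pass, and was at 0 in the knockout and averaged 0.037 RPM in the wild type, also below that limit. The 5 epithelial arms summed to 452 to 524 RPM in the knockout and 1005 to 1700 RPM in the wild type. Of these, 3 fell (miR-200a-3p, miR-200b-3p and miR-429) and 2 did not pass. miR-200c-3p went the other way, at 58.8 ± 7.5 RPM in the knockout and 46.4 ± 10.4 RPM in the wild type (SD, n = 3). Its log2 change was 0.35, and that of miR-141-3p was -0.09. The summed 6 leukocyte arms overlapped between genotypes, at 847 to 954 RPM in the knockout and 793 to 918 RPM in the wild type. Their median log2 change was -0.17. Among them miR-142-3p was higher without overlap, at 378 ± 11 RPM in the knockout and 282 ± 23 RPM in the wild type (SD, n = 3; limma adjusted p = 0.062). Most other leukocyte arms went the other way, with log2 changes of -0.43 for miR-223-3p, -0.30 for miR-150-5p, -0.29 for miR-155-5p and -0.06 for miR-142-5p. That of miR-223-5p was 0.29. The 4 red blood cell arms summed to 377 to 459 RPM in the knockout and 467 to 580 RPM in the wild type, with a median log2 change of -0.29. No leukocyte or red blood cell arm passed. The part of these cell types, and of the higher miR-122 share in the knockout, in the values of the miR-23, miR-27 and miR-24 arms was not tested.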

How the data were processed

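Per the labels' protocols, 1 μg of total RNA per sample went into a ligation-based small RNA kit, and 50 bp were read from 1 end. The authors deposited RPM (reads per 1000000 assigned reads) for 764 miRNAs in 6 libraries, with their mean RPM of each genotype, log2 fold change and p-value, per the file headers. The submitters' processing notes list FastQC, BWA and edgeR, and rn6 as build, without versions or roles. The 10 rows, the marker lists, the ratios and the rule for named miRNAs (all 10 arms, 2 other rows of the same loci, the 3 nearest profiles of each guide, and marker lists) were chosen with earlier results of these data known.

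The 570 miRNAs above 0 in at least 1 library entered a limma 3.58.1 fit of log2(RPM + 1) on genotype alone, whose variance prior follows the mean level. The 194 rows at 0 throughout were not tested. A fold change on this scale understates that of rare miRNAs. All 6 columns matched a sample by name. Ratios and sums were compared by exact permutation. Whole reads were recovered, with 97.8% to 98.9% of values above 0 within 0.0051 RPM of a whole read, and tested with edgeR 4.0.16 (61 calls) and DESeq2 1.42.0 (72 calls) as alternatives. The step of wild type library 1, 0.0996 RPM, is close to the rounding of low values, so its total rests on higher ones, of which 95.2% were whole between 10 and 100 RPM. Replicates were not duplicates of each other: chi-square per degree of freedom over 218 miRNAs was 162.7 or more in each pair. Alternatives were TMM, RLE and upper-quartile scaling, other totals, pseudocounts and filters, a replicate block and leaving out each library.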

Additional observations from a re-analysis of the deposited data

How the results depend on the processing

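The number of the 10 arms called was 0 as reported, and 1, in each case miR-27b-3p, with TMM, RLE and upper-quartile scaling, totals without the 10 most abundant miRNAs, a pseudocount of 0.1, a mean of at least 10 RPM, edgeR and DESeq2 on recovered reads. It remained 0 with a pseudocount of 5, and ranged from 0 to 1 with 1 library left out. The log2 change of miR-27b-3p was below 0 in all 16 alternatives, between -0.93 and -0.51, and that of miR-23a-3p and miR-23b-3p too, between -0.59 and -0.21 and between -0.51 and -0.17.

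Scaling moved the median log2 change of miRNAs of at least 10 RPM from -0.29 to -0.07 with TMM, and turned the sign of arms near 0. None of these passed in any fit, and no direction is read for miR-23a-5p, which rests on 8 reads in the knockout and 10 in the wild type. For TMM, RLE, upper quartile, totals without the 10 most abundant miRNAs, edgeR and DESeq2 in that order, the log2 change was 0.12, 0.13, 0.11, 0.15, 0.12 and 0.14 for miR-27a-3p and 0.10, 0.12, 0.09, 0.14, 0.10 and 0.12 for miR-24-3p. miR-24-2-5p was at 0.01 with RLE, 0.03 with the reduced totals and 0.01 with DESeq2, miR-23a-5p at 0.01 with RLE and 0.04 with the reduced totals, and miR-27b-5p at 0.02 with the reduced totals. With 1 library left out, miR-27a-3p ranged from -0.21 to 0.02, miR-23a-5p from -0.26 to 0.16, miR-24-1-5p from -0.12 to 0.27, the log2 ratio of 23a-3p over 23b-3p from -0.09 to 0.01 and that of 23a-5p over 23b-5p from -0.50 to 0.10.

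The difference in the summed share of the 10 arms was -0.39 percentage points of reads, -0.19 with TMM, -0.89 of the reduced totals (exact p = 0.2) and between -0.50 and -0.27 with 1 library left out. Non-overlapping ratios numbered 5 of 16, 4 with a pseudocount of 0.1, and 6 to 9 with 1 library left out, where fewer libraries overlap less easily. They numbered 8 without knockout library 2, 9 without knockout library 3 and 9 without wild type library 2.

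Equal replicate numbers do not mark a shared animal, litter or day in the labels. Deviations of same-numbered libraries correlated at 0.033, 0.18 and 0.20 over miRNAs. Knockout libraries 2 and 3 correlated best with their own number, and knockout library 1 with wild type library 3, at 0.043. With the replicate block, limma called 22 miRNAs in place of 36 and 0 of the 10 arms (miR-27b-3p, adjusted p = 0.068), and the summed share had an exact sign-flip p of 0.25, the smallest that 3 pairs allow. The floor of 3 reads limits miR-23a-5p.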
